A study of Homo sapiens with 10 samples.

Results

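TBX2, TBX3, TBX4 and TBX5 form one subfamily of the T-box transcription factors and lie as 2 neighbouring pairs in the human genome, TBX2 with TBX4 on chromosome 17 and TBX5 with TBX3 on chromosome 12. The 4 genes were taken by symbol from the 31017 genes of the RNA-seq count table, and each promoter was the baited HindIII fragment that holds the start of the gene. The group was selected on measured values of these data, the larger contact number of the TBX3 promoter in neuroectodermal cells (NECs) at a low level of TBX3 RNA, so the contact number and the RNA level of TBX3 are given as a description with no test. Both cell types were unmodified: embryonic stem cells (ESCs) of the human line H9, grown in Pluripro medium and matrix, and NECs obtained from H9 cells by an established differentiation protocol and harvested on day 7. Promoter Capture Hi-C (PCHi-C) and RNA-seq were each performed on 2 biological replicates of each cell type, ESC replicate 2 of PCHi-C combined technical replicates, and all samples come from a single cell line.

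T-box proteins bind DNA through a shared domain, the T-box. TBX2 and TBX3 are mainly known as repressors, for example of cell cycle inhibitor genes, whereas TBX5 is known as an activator of heart genes. TBX5 marks the forelimb and TBX4 the hindlimb in the early embryo, TBX2 and TBX3 act in heart, limb and gland formation, and TBX2, TBX3 and TBX5 also help to pattern the dorsal part of the developing eye. Limb and heart mesoderm are not the lineage sampled here.

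In PCHi-C, ligation products with a promoter at one end are pulled out of a Hi-C library, and a promoter-interacting region (PIR) is the HindIII fragment at the other end of a called contact. The CHiCAGO score of a contact grows as its distance-weighted p-value, taken on a log scale, gets smaller, and the deposited lists hold contacts with a score of 12 or more. The authors gave one list per replicate and one per cell type with its replicates merged. The lists carry no read numbers, so the depth behind a score is unknown. The replicate lists held between 81168 and 100305 contacts, with the most in NEC replicate 1 and the fewest in NEC replicate 2. RNA-seq libraries held between 19234087 and 25356382 counts. All 8 pluripotency markers were called lower and all 6 neuroectoderm markers were called higher in NECs, against 9.68% and 11.4% of all genes tested. A call needed an edgeR adjusted p below 0.05 with a log2 change larger than 1.5 in size. Both ESC RNA libraries came from one sequencing lane and both NEC libraries from another, so lane and cell type cannot be told apart.

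The fragments that the results below turn on are shown by the 60 bases of GRCh37 across the HindIII site at which each fragment starts, on the plus strand, since this cut is what sets the resolution of the assay. Capitals mark the HindIII site. The first is the TBX3 PIR with the highest score in NECs, the second the TBX3 PIR with the highest score in ESCs, the third the TBX3 PIR called in every replicate, the fourth the TBX2 PIR with the highest score in ESCs, the fifth the TBX2 PIR with the highest score in NECs and the sixth the TBX4 PIR with the highest score in NECs.
chr12:116192149-116192208: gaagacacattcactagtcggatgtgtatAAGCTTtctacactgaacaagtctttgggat
chr12:114879429-114879488: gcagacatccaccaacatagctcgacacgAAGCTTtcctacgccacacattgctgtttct
chr12:116348076-116348135: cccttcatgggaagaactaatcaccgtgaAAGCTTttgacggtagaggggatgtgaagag
chr17:59538004-59538063: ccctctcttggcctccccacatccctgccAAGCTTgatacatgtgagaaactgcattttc
chr17:59069572-59069631: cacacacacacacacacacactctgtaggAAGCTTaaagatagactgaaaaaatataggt
chr17:59644290-59644349: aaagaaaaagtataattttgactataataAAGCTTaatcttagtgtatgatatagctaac

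The TBX3 promoter contacted 7 PIRs in ESCs and 25 in NECs when replicates were merged. TBX3 (ENSG00000135111, GRCh37 chr12:115108059-115121969, minus strand) has its start in a fragment of 4535 bp at chr12:115119071-115123605. The ESC replicates had 4 and 5 PIRs and the NEC replicates had 21 and 12, so that both NEC replicates lay above both ESC replicates. Over all 21768 baits with a PIR in a replicate, 13.2% showed this order. Of 21833 baits, 68 had a merged difference of 18 or more. These values are among those on which the gene was selected.

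The place of the TBX3 contacts differed between the cell types as well as their number. All 25 NEC PIRs lay upstream of TBX3, on the side of MED13L, which encodes a subunit of the Mediator kinase module, at distances of 447 to 1244 kb between fragment centres. In ESCs only 2 of the 7 PIRs lay upstream. A single PIR was shared, which is 14.3% of the ESC and 4% of the NEC list.

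The NEC contacts of TBX3 fell into 2 stretches when PIRs less than 150 kb apart were joined, a gap chosen after the positions were seen. The nearer stretch, chr12:115565067-115605571, held 4 NEC PIRs and no ESC PIR. The farther stretch, chr12:115844487-116372807, held 21 NEC PIRs and 1 ESC PIR in the merged calls. Of these 21 fragments, 16 and 10 were called in the NEC replicates and 1 and 1 in the ESC replicates. Both stretches lie in the interval between TBX3 and MED13L, and none of the NEC PIRs overlaps a protein-coding gene.

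The TBX3 PIR with the highest NEC score was the 1630 bp fragment chr12:116192179-116193808, 1072 kb upstream, which overlaps an exon of a long non-coding RNA gene. Its score was 23.21 in the merged NEC calls, 21.88 in NEC replicate 1 and 12.57 in NEC replicate 2, and it was not called in any ESC list. The adjoining fragment chr12:116185564-116192178 is intergenic and scored 23.05 merged, with 21.55 and 13.18 in the replicates. At both fragments NEC replicate 2 was close to the threshold of 12 and NEC replicate 1 far above it.

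Contacts called in both NEC replicates and in neither ESC replicate numbered 7 for TBX3 and 0 for each of TBX2, TBX4 and TBX5. Of all baits, 20.2% had at least 1 such contact, and 52 had 7 or more. Besides the pair just described they comprised chr12:115593761-115600663 with a merged score of 17.62, chr12:115881967-115888049 with 17.28, chr12:115888050-115893614 with 17.23, chr12:115893615-115901126 with 18.38 and chr12:116206564-116210879 with 15.56. Of these 5 fragments, the first 4 are intergenic and the last lies in an intron of a long non-coding RNA gene. The fragments from chr12:115881967 to chr12:115901126 adjoin one another, so the 7 contacts stand for fewer separate sites.

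One TBX3 contact was called in all 4 replicates, that with the intergenic fragment chr12:116348106-116357436, 38.3 kb from MED13L. Its scores were 12.23 and 12.26 in the ESC replicates against 16.91 and 14.92 in the NEC replicates. The merged scores were 13.24 in ESCs and 19.09 in NECs. Of all baits, 18.3% had a contact called in every replicate.

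The ESC contacts of TBX3 that were absent from NECs lay mostly on the other side, toward and beyond TBX5. The highest ESC score of TBX3, 19.06, belonged to chr12:114879459-114886678, a fragment between TBX5 and TBX3 that overlaps an exon of a long non-coding RNA gene. This contact was called in ESC replicate 2 alone among the replicates, with a score of 15.58. The same fragment was a PIR of TBX5 in the merged NEC calls, with a score of 12.76.

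Another 3 ESC PIRs of TBX3 were neighbouring fragments over LHX5, a LIM homeobox gene of the developing brain, 1209 kb and more away. Their merged scores were 13.14, 13.18 and 13.49, and each was called in 1 ESC replicate. From the other end, the LHX5 promoter fragment called the TBX3 promoter with a score of 16.9 in the merged ESC calls and 16.34 in ESC replicate 1. Neither direction was called in any NEC list. LHX5 had 5 and 0 counts in the ESC libraries and 495 and 440 in the NEC libraries, which is 7.40 on the log2 scale (SE 0.57, edgeR adjusted p = 0.00014).

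**Figure D1:**
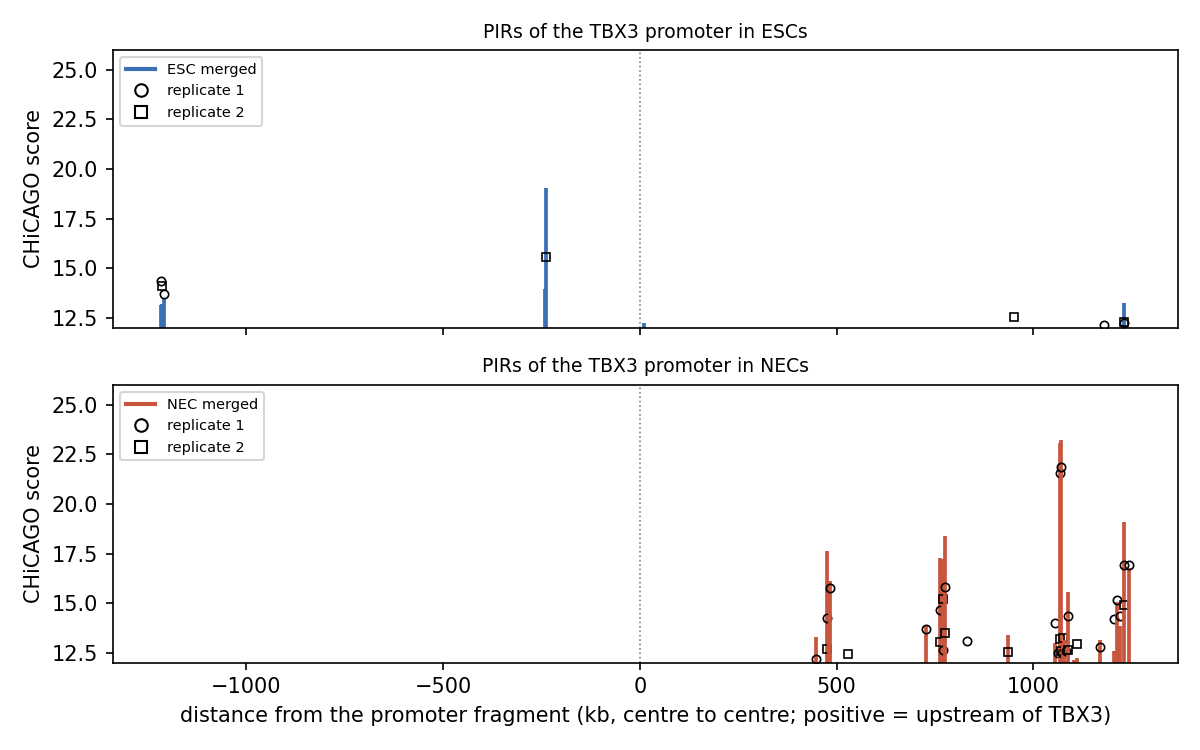
CHiCAGO score (vertical axis, starting at the list threshold of 12) of each TBX3 PIR against its distance from the promoter fragment in kb, in ESCs (upper panel) and NECs (lower panel). Bars are merged calls and open symbols are replicates. All 25 merged NEC PIRs stand to the right, upstream of TBX3, and 5 of the 7 merged ESC PIRs stand to the left.

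TBX5 RNA was not detected in either cell type, and its promoter had 9 PIRs in each merged list. TBX5 (ENSG00000089225, chr12:114791736-114846247, minus strand) starts in a fragment of 25462 bp at chr12:114831466-114856927, which also holds the start of the antisense gene RP11-385N17.1. The ESC replicates had 3 and 2 PIRs and the NEC replicates 9 and 6. The replicates did not overlap, with NECs higher, an order that 13.2% of all baits showed, although the merged numbers were equal. Between the merged lists 3 PIRs were shared, 33.3% of each. TBX5 had no contact that both replicates of a cell type called and the other cell type lacked in both.

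TBX5 was in contact with the promoter of its neighbour TBX3, 277 kb away, in both cell types. From the TBX5 bait the merged scores were 16.31 in ESCs and 13.29 in NECs. Among the replicates it was called in ESC replicate 2 with 14.04 and in NEC replicate 2 with 15.93, and in neither replicate 1. From the TBX3 bait the same pair was not called. The TBX5 PIR with the highest NEC score, chr12:114449903-114454797, lies 45.8 kb from RBM19, which encodes an RNA-binding protein of the nucleolus. It scored 14.69 in ESCs and 14.85 in NECs. Its replicate calls were 13.27 in ESC replicate 2, 12.43 in NEC replicate 1 and 15.66 in NEC replicate 2.

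TBX5 also reached into the farther TBX3 stretch, in NECs. The fragment chr12:116329455-116336971, 1489 kb from TBX5, scored 13.51 in the merged NEC calls and 13.96 in NEC replicate 1. From the TBX3 bait the same fragment scored 15.06 in the merged NEC calls. NEC replicate 1 called another 3 fragments of that stretch from TBX5, with scores of 12.11, 12.42 and 12.66, and NEC replicate 2 called none.

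The TBX2 promoter had 15 merged PIRs in ESCs and 17 in NECs. TBX2 (ENSG00000121068, chr17:59477257-59486827, plus strand) starts in a fragment of 11976 bp at chr17:59469602-59481577. The ESC replicates had 15 and 9 PIRs and the NEC replicates 12 and 9, and the ranges overlap. Between the merged lists 6 PIRs were shared, which is 40% of the ESC and 35.3% of the NEC list. Most PIRs of both cell types lay upstream, 12 of 15 in ESCs and 13 of 17 in NECs, and all of these fell within BCAS3, a gene of a cytoskeletal and autophagy-related protein whose body extends over this interval.

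Upstream of TBX2, a group of PIRs within BCAS3 was called in both cell types, and 2 of them were called in every replicate. The TBX2 contacts called in all 4 replicates were chr17:59069602-59080707 and chr17:59086607-59090594, the first overlapping a BCAS3 exon and the second within an intron. The first scored 15.65 and 12.65 in the ESC replicates against 12.61 and 24.67 in the NEC replicates, and had the highest merged NEC score of TBX2, 22.73. The NEC replicates thus lay on either side of ESC replicate 1. The second scored 13.65 and 15.48 in ESCs and 12.02 and 12.92 in NECs.

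Downstream of TBX2 the contacts differed. In ESCs the highest-scoring TBX2 PIR was chr17:59538034-59539523, a fragment of 1490 bp within an intron of TBX4, with 22.24 in the merged calls and 14.52 and 15.02 in the replicates. No NEC list called it. It was one of 2 TBX2 contacts called in both ESC replicates and in neither NEC replicate, and 21.7% of all baits had at least 1. The other, chr17:59090595-59097234, had a merged score of 14.45 in ESCs and was also in the merged NEC calls with 12.16. In NECs the downstream PIRs of TBX2 lay past TBX4, from 165 to 184 kb, with merged scores from 12.33 to 15.6.

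The promoters of TBX2 and TBX4 were in contact with each other in ESCs. The TBX2 bait called the TBX4 promoter fragment, 57.2 kb away, with a merged score of 17.73, and the TBX4 bait called the TBX2 promoter fragment with 18.77. Among the replicates ESC replicate 2 called both directions, with 12.24 and 13.13, and ESC replicate 1 called neither. No NEC list called the pair.

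The TBX4 promoter had 13 merged PIRs in ESCs and 8 in NECs, but the replicates gave 1 and 6 against 3 and 5 and overlap. TBX4 (ENSG00000121075, chr17:59529779-59562469, plus strand) starts in a fragment of 10401 bp at chr17:59527633-59538033. Of the PIRs 5 were shared, 38.5% of the ESC and 62.5% of the NEC list. The highest NEC score of TBX4, 18.93, belonged to the intergenic fragment chr17:59644320-59653777, 116 kb downstream and 14 kb from NACA2. It scored 16.49 in the merged ESC calls, 13.88 in ESC replicate 2, and 13.88 and 13.67 in the NEC replicates. TBX2 shared this fragment in NECs, with a merged score of 12.33. No TBX4 contact was called in every replicate.

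**Figure D2:**
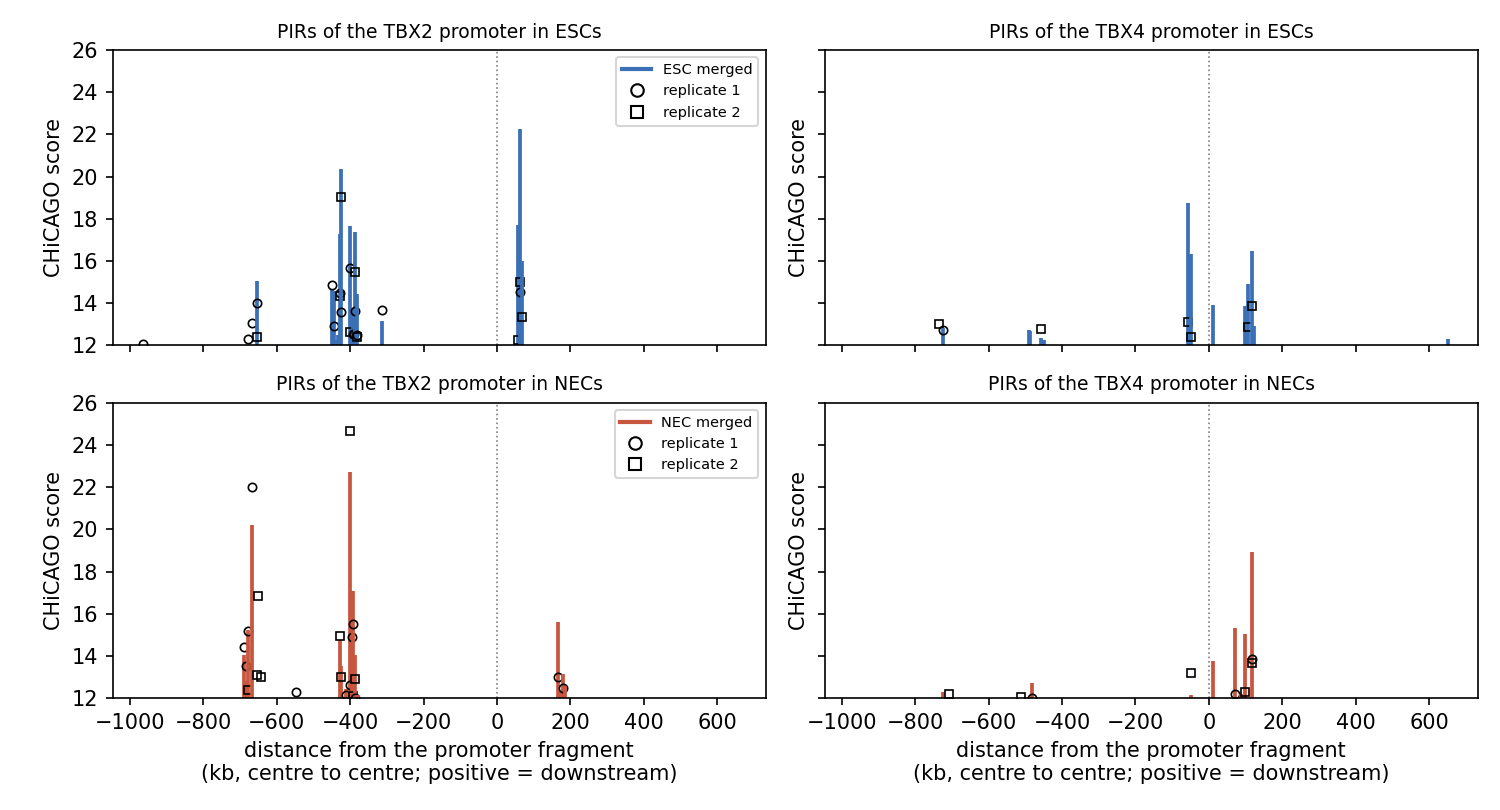
CHiCAGO score (vertical axis, starting at the list threshold of 12) of the PIRs of TBX2 (left) and TBX4 (right) against distance from each promoter fragment in kb, in ESCs (upper) and NECs (lower). Bars are merged calls and open symbols are replicates. The ESC contact of TBX2 at 63.2 kb, with a merged score of 22.24, has no counterpart in NECs, while the contact at 400.4 kb upstream stands in both.

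**Figure D3:**
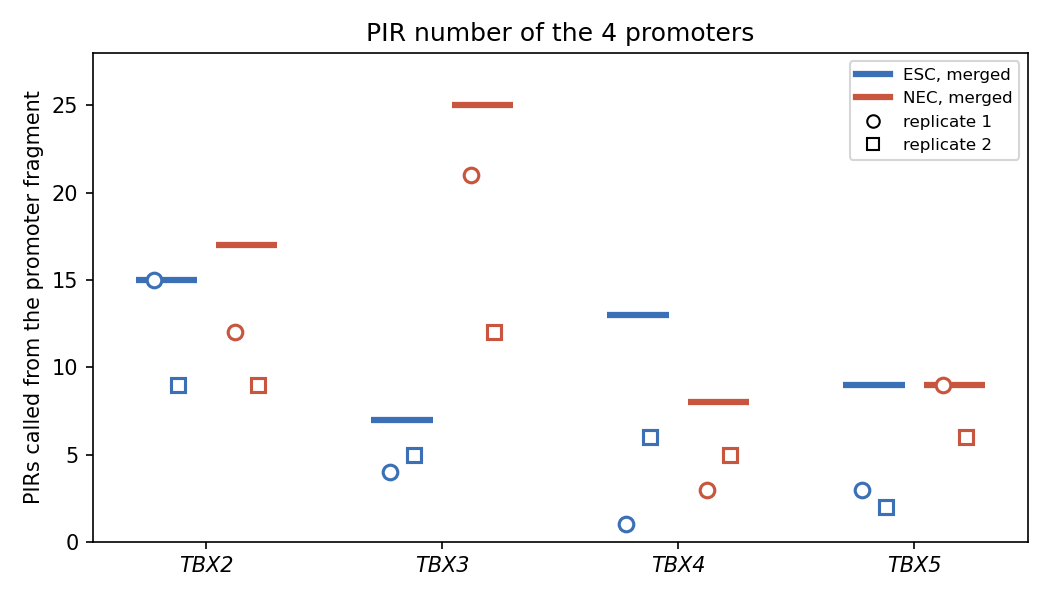
Number of PIRs (vertical axis) of each promoter in ESCs and NECs. Horizontal bars are merged calls and open symbols the 2 replicates. The NEC replicates stand above the ESC replicates for TBX3 and TBX5, an order that 13.2% of all baits showed, and the replicates overlap for TBX2 and TBX4.

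In PIR number, no member had both ESC replicates above both NEC replicates, an order found at 12.9% of all baits. The other 13 T-box promoters all had baits, and in all 13 the replicate PIR numbers of ESCs and NECs overlapped. Over all baits, 13.2% had both NEC replicates higher and 12.9% had both ESC replicates higher. EOMES, a regulator of mesendoderm, had 16 and 11 PIRs in the ESC replicates against 13 and 11 in the NEC replicates, and the highest number among them in each list but ESC replicate 2, where TBX15 had 12. TBX18 had 2 contacts called in both NEC replicates and in neither ESC replicate, and TBR1 and MGA had 1 each, so 3 of the 13 had such a contact, against the 20.2% of all baits. In the reverse direction TBR1 had 2 and TBX1 and TBX22 had 1 each, again 3 of the 13, against 21.7%.

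A short motif, the T-box half-site AGGTGTGA, was searched on both strands in the merged PIRs. Of the 25 NEC PIRs of TBX3, 11 held the half-site (44%), against 45.6% of listed fragments within 20% of their lengths. For TBX2 the half-site was in 3 of 15 ESC PIRs (20%, against 43.5%) and in 7 of 17 NEC PIRs (41.2%, against 44.2%). These are matches to letters and say nothing of occupancy. The TBX3 PIR called in all 4 replicates held 3 half-sites, and 63.6% of fragments of like length held at least 1. One is shown with 14 bases on each side, in capitals the match.
chr12:116351134-116351169: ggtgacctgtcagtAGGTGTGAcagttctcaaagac

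The highest-scoring ESC fragment of TBX3, between TBX5 and TBX3, held 1 half-site, on the minus strand, and 54.6% of fragments of like length held at least 1. It is shown on the minus strand, 5′ to 3′, with the match in capitals. The TBX3 PIR with the highest NEC score held none.
chr12:114886642-114886677: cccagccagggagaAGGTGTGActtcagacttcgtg

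In RNA-seq the 4 genes were low in both cell types, with TBX4 and TBX5 at the detection limit in both, and only TBX3 passed the filter on low counts. TBX3 had 19 and 25 counts in the ESC libraries and 21 and 15 in the NEC libraries. As CPM, counts scaled to library size, this was 1.01 ± 0.0033 in ESCs and 0.795 ± 0.26 in NECs (SD, n = 2). The counts of the cell types overlap, and NEC replicate 1, at 0.983 CPM, was close to the ESC libraries, at 1.01 CPM each. The log2 fold change of NECs over ESCs was -0.35 (SE 0.38), given without a test because the low level of TBX3 was part of the selection.

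TBX2 had 1 and 0 counts in ESCs and 21 and 1 in NECs. A single library, NEC replicate 1, held nearly all TBX2 reads, and NEC replicate 2 was at the level of the ESC libraries. That library also had more counts than NEC replicate 2 of each of the 6 neural crest markers. TFAP2A, a neural crest and surface ectoderm factor, had 117 against 17, and SOX10, a neural crest factor, had 393 against 17. Summed over the 6, NEC replicate 1 had 152 CPM and NEC replicate 2 had 44.1. The sum of 126 CPM in each ESC library was mostly ETS1, with 106 and 105 CPM. FOXD3 had 15 and 16.1 CPM in ESCs and SOX10 3.71 and 3.64, while SNAI2, TFAP2A and PAX3 were at 0.849 CPM or below there. In NEC replicates 1 and 2 FOXD3 had 8.7 and 0.365 CPM, and SOX10 had 18.4 and 0.689 CPM. Among the 6 neural crest markers, 3 were called higher and 1, ETS1, lower in NECs, against 11.4% and 9.68% of all genes tested. The 8 eye field markers moved in both directions between the NEC libraries and summed to 26.3 and 21.6 CPM, against 22.8 and 21.3 in ESCs. Most of the ESC sum was ALDH1A3, with 20.7 and 19.9 CPM there and 1.12 and 0.486 CPM in NECs. Of the 6 eye field markers tested, 5 were called higher and 1, ALDH1A3, lower in NECs, against 11.4% and 9.68% of all genes tested. RAX had 170 counts in NEC replicate 1 against 21 in NEC replicate 2, and LHX2 had 163 against 308. The part of these cells in the TBX2 counts was not tested. No neural crest marker was at 0 in both libraries of a cell type.

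TBX4 had 0 and 2 counts in ESCs and 0 and 1 in NECs. TBX5 had 0 counts in all 4 libraries. A count of 0 allows up to 3 counts of a library. The heart and lateral plate mesoderm markers summed to 18 and 19.6 CPM in ESCs and 11.9 and 14.8 CPM in NECs, with none of the 7 at 0 in both libraries of a cell type. NKX2-5, the largest part, had 8.26 and 7.44 CPM in ESCs and 8.05 and 8.8 CPM in NECs. TNNT2 had 5.99 and 6.31 CPM in ESCs and 1.73 and 4.13 CPM in NECs. Of the 3 markers tested, 1, GATA4, was called lower and 0 higher, against 9.68% and 11.4% of all genes tested. The 5 limb mesenchyme markers summed to between 0.318 and 0.485 CPM in ESCs and between 4.9 and 5.94 CPM in NECs, and most of the NEC sum was PRRX1, a mesenchymal homeobox gene, with 5.52 and 4.17 CPM. PITX1 and SHOX2 were at 0.567 CPM or below in every library, and HOXD12 and HOXD13, which mark the distal limb, had no count in any library. In bulk samples fewer cells of a type and less RNA per cell cannot be told apart.

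Scaled by exon length as RPKM (CPM per kilobase), TBX3 had the highest level of the 4 genes in ESCs, 0.169 and 0.17, with TBX2, TBX4 and TBX5 at 0.0202 or below in every ESC library. In NEC replicate 1 TBX3 and TBX2 were alike, at 0.165 and 0.162. In NEC replicate 2 TBX3 was at 0.102 and TBX2 at 0.00666. The values of TBX2 and TBX4 overlapped within each cell type, and TBX5 was at 0 throughout.

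**Figure D4:**
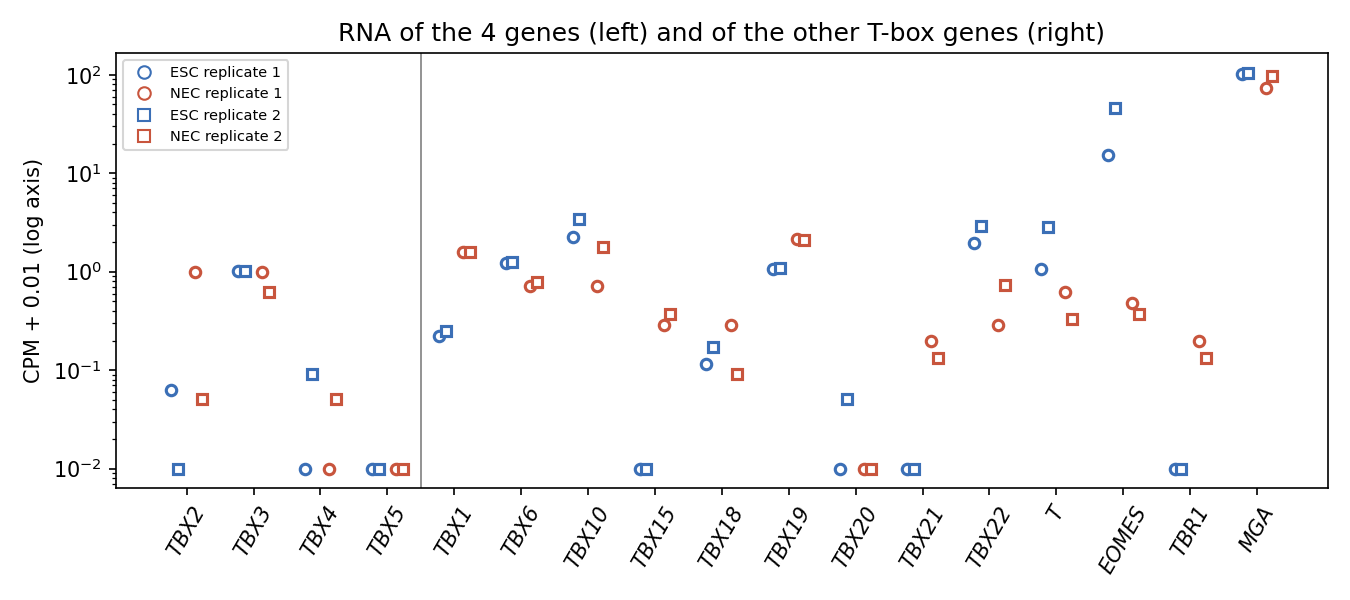
RNA level of the T-box genes in each library, as CPM with 0.01 added on a log axis (vertical), the 4 genes to the left of the line and the other 13 to the right. Circles are replicate 1 and squares replicate 2. Symbols at 0.01 are libraries with no count. TBX5 has none in all 4 libraries, and TBX2 is above 0.1 in NEC replicate 1 alone.

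Of the other 13 T-box genes, 8 passed the filter on low counts, of which 1 was called higher and 3 were called lower in NECs (edgeR, adjusted p below 0.05 with a log2 change larger than 1.5 in size), against 11.4% and 9.68% of all 17564 genes tested. Their median log2 fold change was -0.95, against 0.01 over all genes tested. TBX1, a gene of the pharyngeal region, was higher, with 4 and 6 counts in ESCs against 34 and 39 in NECs (a log2 change of 2.76 with SE 0.38, edgeR adjusted p = 0.00118). EOMES fell by 6.20 on the log2 scale (SE 0.68, edgeR adjusted p = 0.000517), from 289 and 1133 counts to 10 and 9. TBX22, a gene of palate development, fell by 2.23 (SE 0.47, edgeR adjusted p = 0.00674), and T, the brachyury gene of the primitive streak, fell by 2.09 (SE 0.59, edgeR adjusted p = 0.02). The ESC libraries differed from each other by a factor larger than their depths at EOMES and T, as ESC replicate 2 was the higher in both. The call of T was lost without ESC replicate 2 (log2 fold change -1.20, edgeR adjusted p = 0.183) and without NEC replicate 2 (-1.70, edgeR adjusted p = 0.0723), and TBX10 was called lower without NEC replicate 2. The 6 mesendoderm markers, EOMES among them, summed to 30.5 and 85.8 CPM in ESCs against 3.46 and 3.12 in NECs, and 4 of the 5 tested were called lower. MESP1, which was not tested, did not fall, with 0.424 and 0.121 CPM in ESCs against 0.281 and 0.405 in NECs. None of the 6 markers was at 0 in both libraries of a cell type, and their part in the values of T was not tested.

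Of 7 signals that act on or with these genes in embryos, 2 were called higher and 1 lower in NECs, against 11.4% and 9.68% of all genes tested, and the median of the log2 fold changes was 0.02. BMP7, a BMP ligand, rose from 200 and 188 counts to 2145 and 2385 (a log2 change of 3.45 with SE 0.16, edgeR adjusted p = 2.8e-05). FGF10, the limb and lung bud ligand, rose from 3 and 6 counts to 72 and 131 (a log2 change of 4.37 with SE 0.44, edgeR adjusted p = 0.00037). FGF8, a ligand of several embryonic organizers, fell from 250 and 488 counts to 43 and 79 (a log2 change of -2.65 with SE 0.30, edgeR adjusted p = 0.00058). BMP2, BMP4, SHH and WNT5A were not called.

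Of 7 genes known as targets of these factors, 4 were called lower and 0 higher, against 9.68% and 11.4% of all genes tested, with a median log2 fold change of -1.77. Those called were CDH1, the epithelial cadherin, with 2563 and 4324 counts in ESCs against 177 and 251 in NECs (a log2 change of -4.07 with SE 0.17, edgeR adjusted p = 2.02e-05), the cell cycle inhibitor genes CDKN2A (log2 fold change -2.65, edgeR adjusted p = 0.00299) and CDKN2B (-1.77, edgeR adjusted p = 0.0105), and GJA5, a connexin of the heart (-1.77, edgeR adjusted p = 0.00434). CDKN1A, another cell cycle inhibitor, had a log2 fold change of 1.40 (SE 0.16), under the fold threshold, with an edgeR adjusted p of 0.000618. DESeq2 likewise called 0 targets higher, and each tool had 1 target higher at an unadjusted p below 0.05. Without ESC replicate 1 CDKN1A was called higher, with 1.61. The call of CDKN2B was lost under DESeq2 (adjusted p = 0.0888) and without ESC replicate 1 (edgeR adjusted p = 0.107), and that of GJA5 without ESC replicate 2, where its log2 fold change was -1.44. Several of these genes are also known to respond to other regulators, and CDH1 is a gene of pluripotent epithelium.

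Of 32 genes that start within 1 Mb of a member, 14 passed the filter, of which 4 were called higher and 1 lower in NECs, against 11.4% and 9.68% of all genes tested. Beside LHX5 these were SDSL, an enzyme of serine breakdown, with 21 and 17 counts in ESCs against 227 and 254 in NECs (a log2 change of 3.56 with SE 0.28, edgeR adjusted p = 0.000151), RP11-438N16.1 with a log2 fold change of 2.71 (SE 0.29), and the antisense gene RP11-82C23.2, which shares the LHX5 promoter fragment and had 0 and 1 counts in ESCs and 122 and 87 in NECs. NACA2, downstream of TBX4, had 162 and 196 counts in ESCs and 0 and 1 in NECs. NACA2 is an intronless copy of NACA, so its reads may be shared with its parent gene, which was not tested. BCAS3, which holds the upstream PIRs of TBX2, had a log2 fold change of 1.39 (SE 0.17), under the fold threshold, and was called higher without NEC replicate 2, with 1.60. The counting took no account of strand, so reads of LHX5 and of its antisense partner may be mixed.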

How the data were processed

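Promoter Capture Hi-C and RNA-seq were each analysed in 2 ESC and 2 NEC replicates. The authors mapped reads to GRCh37, scored fragment pairs with CHiCAGO per replicate and merged, and deposited the scores (score, 12 or more). For RNA-seq the authors trimmed and aligned reads (TopHat2 2.0.8b and Bowtie 1.0.0 in the submitters' processing notes) and deposited raw counts per gene, taken without regard to strand. The Hi-C data were not used here.

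The filter was edgeR's filterByExpr (minimum count 10), and genes that passed were normalized by TMM and tested with edgeR 4.0.16 (quasi-likelihood, prior count 0.125) in R 4.3.3, with Benjamini-Hochberg adjustment over all 17564 genes tested. Calls needed an adjusted p below 0.05 with a log2 change larger than 1.5 in size. DESeq2 1.42.0 and other settings were alternatives, and both tests were tested on simulated data. CPM used TMM library sizes, and RPKM used the union of exons. Contacts were counted as distinct PIR fragments of a bait in Python 3.11.15, with gene annotation from GENCODE lifted to GRCh37. With 2 replicates against 2, no permutation test can reach 0.05, so contact numbers have no p. Named genes were the 4 members, list genes that were called or lie at an end of a member's contact, and PIRs with the highest scores or called in a fixed set of replicates. The members and all gene lists were chosen with earlier results of these data known.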

Additional observations from a re-analysis of the deposited data

How the results depend on the processing

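Across 168 alternative values for 26 results, 133 stayed close to the reported value. These did not reverse direction and moved by less than the spread between replicates or, for counts of genes or contacts, stayed within 1.5 times. Some of the 133 could not change. A contact number of 0 stays at 0 under a further filter, and each gene had only 1 baited fragment with a transcript start. The spread between replicates was wide for TBX2, whose mean of 0.512 CPM in NECs was 0.0405 without NEC replicate 1. The TBX3 log2 fold change was -0.72 without NEC replicate 1 and -0.041 without NEC replicate 2, the ends of its range when single replicates were left out. TBX2 was not tested under the filter, and with no filter on low counts its edgeR log2 change was 4.12 with SE 1.41 (adjusted p = 0.0103), with 21 of its counts in NEC replicate 1. Same-numbered RNA libraries did not deviate together, with a correlation of deviations of 0.0551, and the samples were treated as unpaired. This cannot show whether same-numbered samples share an origin, and the PCHi-C replicates were not compared in this way. With the replicate block the TBX3 log2 fold change was -0.38 and no count of called genes differed. For PIR numbers, a score of at least 15 gave differences of 10 for TBX3, -2 for TBX2 and 0 for TBX4. Joining adjacent fragments gave 8 for TBX3. The mean of the replicate lists gave -1.5 for TBX2, 0.5 for TBX4 and 5 for TBX5. With 1 replicate list per cell type, the difference ran from 7 to 17 for TBX3, -6 to 3 for TBX2, -3 to 4 for TBX4 and 3 to 7 for TBX5, and the lowest TBX3 values used NEC replicate 2. The TBX2 and TBX4 differences therefore have no stable sign. PIRs within 10 kb raised the shared number to 10 for TBX2 and 3 for TBX3, and a score of at least 15 lowered it to 1 for TBX2, 0 for TBX3, 1 for TBX4 and 0 for TBX5. Of the 7 TBX3 contacts in both NEC and neither ESC replicate, 2 had merged scores in the highest of 5 equal parts, which is only part of the rule by which the study chose rewired contacts. The 2 TBX2 contacts of the reverse kind became 1 when also required to be absent from the NEC merged list, 1 in the highest score group and 1 with PIRs within 10 kb. Other T-box genes called higher numbered 2 with no filter on low counts, 2 with a minimum count of 5 and 2 with no fold change threshold. Target genes called lower numbered 3 with DESeq2 and 3 without either ESC replicate, and those called higher numbered 1 with no fold threshold and 0 to 1 when single replicates were left out, and neighbour genes called lower numbered 2 with no fold threshold. The cause was not tested.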

Other observations

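Other promoters also called the TBX promoters. The fragment chr17:59033954-59040091, which holds no gene start of the count table, called the TBX2 promoter in both ESC replicates with scores of 14.6 and 13.58 and in neither NEC replicate. The PPM1D promoter did so with 13.99 and 12.42. Of all baits, 21.7% had at least 1 contact of this kind. The PPM1D promoter also called the TBX4 promoter, in ESC replicate 2 with 13.69 and in NEC replicate 2 with 13.63. The fragment chr17:58739677-58751926 called TBX2 in both NEC replicates, with 16.7 and 12.34, and in ESC replicate 2 with 14.07. The start of RP11-116D17.1, which lies between the TBX3 stretches, called TBX3 with 12.42 in ESCs and 12.32 in NECs.

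The genes most like TBX3 in RNA level and PIR number over 4 RNA libraries and 4 PCHi-C replicates, among 16951 protein-coding genes with a baited start, were SAMD5, THBD and AC079354.1. Their root mean square differences on the log2 scale were 0.28, 0.34 and 0.43. SAMD5 had 4 and 6 PIRs in ESCs against 19 and 9 in NECs. For TBX2 the nearest were FBXL8, HAPLN2 and TTC6, for TBX4 OR51F2, NKX6-3 and FCRLA, and for TBX5 PI3, PPP3R2 and KCNA10.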
